A study of Oikopleura dioica with 12 samples.

Results

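The translational efficiency of an mRNA is the level of its ribosome protected fragments (RPFs) relative to the abundance of its transcript, and the change described here is the difference between log2 efficiency under the mTOR inhibitor Torin 1 and under the vehicle DMSO. It was estimated for the 14574 of 17212 genes that had at least 100 reads summed over all libraries. The animals were females of Oikopleura dioica, a planktonic tunicate, held in seawater at day 6 for 1.5 h. The 4 groups were RPFs of animals in 1 μM Torin 1, RPFs of animals in DMSO, total RNA of animals in Torin 1 and total RNA of animals in DMSO, with 3 biological replicates each. RPFs and RNA of one treatment and replicate number came from 1 collection, so that 6 collections gave 6 efficiencies per gene. Each library pooled whole animals, so that a smaller number of cells of one type and less RNA per cell cannot be told apart.

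The kinase mTOR couples nutrient and growth signals to protein synthesis. Active mTOR phosphorylates the 4E-BPs, which otherwise hold the cap-binding protein eIF4E away from the initiation machinery, and the S6 kinase RPS6KB1, which phosphorylates ribosomal protein S6. In mammals the mRNAs most sensitive to Torin 1 carry a terminal oligopyrimidine (TOP) tract directly after the cap, and encode ribosomal proteins, elongation factors and other parts of the translation apparatus. In O. dioica many mRNAs receive a short spliced leader by trans-splicing at the 5′ end, and several genes of an operon are transcribed together and separated by this reaction. The comparison asked which mRNAs lost or gained ribosomes relative to their own abundance when mTOR was inhibited. All changes are relative to other genes, and a loss of translation common to all mRNAs would not appear in them.

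Library depth and 4 libraries in doubt bear on every value. The RNA libraries held from 7520819 to 27462750 counts. Of the RPF libraries, DMSO 1 held 22889270 and the others from 91549 (Torin 1 replicate 3) to 874562. A count of 0 allows up to 3 counts of the total, which is 0.131 RPM (reads scaled to the library total) in RPF DMSO 1 and 32.8 RPM in RPF Torin 1 replicate 3, for counting error only. RNA Torin 1 replicate 2 and RNA DMSO 2 agree within sampling noise although they carry different treatments (mean chi-square per gene of 1.07, against 10.6 to 862 for every other pair of libraries of one assay). RPF DMSO 1 was closest to RNA Torin 1 replicate 3 (Pearson r across genes of 0.953 on log2(RPM + 1), a description over genes, which are not replicates) and had r of 0.750 to 0.798 with the other RPF libraries. RNA Torin 1 replicate 3 had r of 0.675 to 0.809 with the other RNA libraries. Low r within an assay was not particular to these: RPF Torin 1 replicate 3 had 0.719 to 0.761 with the other RPF libraries and RNA Torin 1 replicate 1 had 0.658 to 0.826 with the other RNA libraries. At least 1 of these libraries enters each of the 3 same-numbered pairs of a Torin 1 and a DMSO efficiency, so that no pair is free of them. Values are therefore given from all 12 libraries and from the 8 that remain without these 4. In the 8-library fit RNA Torin 1 replicate 1 is the only RNA library of its treatment, although it too stands apart from the other RNA libraries, and is assumed to vary like the other groups.

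With all 12 libraries no gene passed an adjusted p of 0.05 by edgeR's quasi-likelihood test with Benjamini-Hochberg adjustment, in either direction. At an unadjusted p under 0.05, 30 genes were higher in Torin 1 (0.206% of genes tested) and 1093 were lower (7.5%). The median change over all genes was −0.46 on the log2 scale, with a median standard error (SE) of 1.09, so that a gene needed a several-fold difference to stand out from the spread between libraries. DESeq2 called 1 gene higher (0.0102% of the 9793 genes with an adjusted p) and 144 lower (1.47%). Without the 4 libraries in doubt the median of all genes was 0.17, no gene was called higher and 11 were called lower (0.0755%) by edgeR, and at an unadjusted p under 0.05 538 were higher (3.69%) and 1178 lower (8.08%). Of all genes, 10491 (72.0%) kept the sign of their change between the 12-library and 8-library fits.

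The numerator and the denominator differed in which way they leaned. RPFs compared on their own gave 190 genes higher in Torin 1 (1.3%) and 600 lower (4.12%) at an unadjusted p under 0.05, whereas total RNA gave 1465 higher (10.1%) and 4 lower (0.0274%), and neither assay gave a gene past an adjusted p of 0.05 by edgeR. The 1093 genes of lower efficiency had a median efficiency change of −6.41, made of a median RPF change of −1.91 and a median RNA change of 4.26. In 743 of them the RNA change was larger in size than the RPF change. Of all genes, 43.7% had the larger change in RPFs. Of the 1093, 667 (61.0%) had their highest RNA level in RNA Torin 1 replicate 3 and their highest RPF level in RPF DMSO 1, and 179 were also lower at an unadjusted p under 0.05 in the 8-library fit. A lower efficiency by definition favours high RNA in Torin 1 and high RPFs in DMSO. The share of all genes with both maxima was not counted. In the same-numbered pairs the 1093 genes had median differences of −4.57 (pair 1), 0.89 (pair 2) and −5.99 (pair 3). Pair 2 thus went the other way. The 30 genes of higher efficiency had a median change of 2.56, made of 1.86 in RPFs and −0.49 in RNA. All 30 were positive in the 8-library fit too, where 6805 of the 14574 genes were negative. That fit uses 8 of the same 12 libraries, so that this agreement is not independent.

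**Figure D1:**
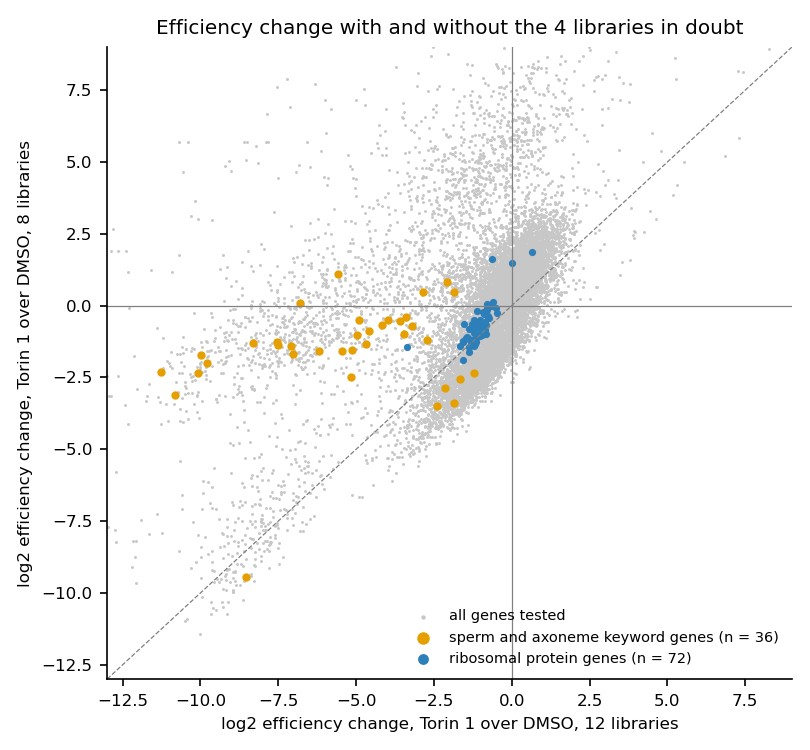
Efficiency change of each gene, log2 Torin 1 over DMSO, in the fit of 12 libraries (x axis) against the fit of 8 libraries (y axis), with ribosomal protein genes and the sperm and axoneme keyword genes marked. The plot holds 14508 genes, with 66 outside its range, and 69 of 72 ribosomal protein genes have one sign in both fits.

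Ribosomal protein mRNAs were the largest group of TOP orthologs, with 46 gene models for the large and 26 for the small subunit, all tested. Measured as the share of RPF counts over the share of RNA counts that the 72 genes took together, their efficiency was 0.178, 0.102 and 0.419 in the 3 Torin 1 collections, against 0.741, 0.281 and 0.498 in the 3 DMSO collections. The highest Torin 1 collection, replicate 3, lay between DMSO 2 and DMSO 3, so that the treatments overlapped. In Torin 1 the list took 0.969%, 0.706% and 1.47% of RPF counts, against 4.29%, 1.95% and 2.94% in DMSO, with no overlap. These shares depend on the library totals, of which GSOIDG00008149001 alone took 42.7% in RPF Torin 1 replicate 3 and 2.73% in RPF DMSO 2. The lack of overlap depends on counting that gene in the totals. Of RNA counts the list took 5.43%, 6.93% and 3.52% in Torin 1, against 5.79%, 6.95% and 5.90% in DMSO. The treatments thus differed more in RPFs than in RNA, and for 71 of 72 genes the RPF change was larger in size than the RNA change, as it was for 43.7% of all genes. The RPF change was negative for 71 of the 72 (61.0% of all genes) and the RNA change for 70 (44.2% of all genes).

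Of the 72 ribosomal protein genes, 2 (2.78%) were lower at an unadjusted p under 0.05, against 7.5% of all genes, and none was higher. In 32 (44.4%) the efficiency was lower in Torin 1 in all 3 same-numbered pairs, against 13.5% of all genes. For 8 (11.1%) the 3 Torin 1 ratios lay below all 3 DMSO ratios, against 4.49% of all genes. In the other direction, 1 gene was higher in all 3 pairs, against 5.17% of all genes, and none had its Torin 1 ratios above all DMSO ratios, against 1.37%. Single genes thus seldom stood apart from the spread, and the list's median SE was 0.749 with 12 libraries and 1.05 with 8, where the 95% interval of the change held 0 for all 72 genes. Relative to all genes, the list lay at −1.01 in pair 1, −1.62 in pair 2 and 1.07 in pair 3, with 70, 69 and 3 of 72 genes below the median of all genes. Pair 3 had the opposite sign. Its median was 0.07 for the list itself and −1.01 for all genes, so that the list was nearly unchanged there while all genes were lower. The highest of 4 equal classes of genes by RNA level per kb, which holds 70 of the 72, lay at 1.01 in pair 3. The counts of genes lower or higher in all 3 pairs are not relative to all genes. Pair 3 holds RNA Torin 1 replicate 3 and the shallowest RPF library, whose part in this was not tested.

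**Figure D2:**
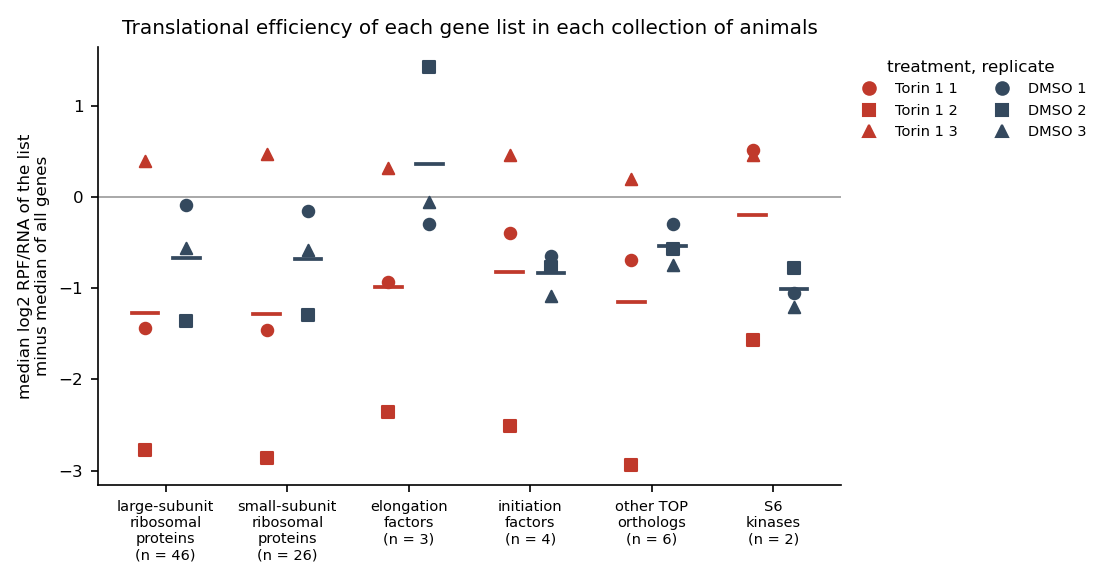
Median log2 ratio of RPF to RNA of each gene list minus the median of all genes (y axis), in each of the 6 collections, Torin 1 in red left of DMSO in dark blue, with bars at the mean of the 3 collections. The elongation factors are the 3 with reads in RPFs of Torin 1 animals. For both ribosomal subunits Torin 1 replicate 3 lies above all DMSO collections, and Torin 1 replicates 1 and 2 lie below all of them.

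The large-subunit list had a median change of −0.61 relative to all genes with 12 libraries and −0.98 with 8. Among its 6 most abundant mRNAs, RPL3 (GSOIDG00014879001, 4 coding exons on the minus strand of scaffold 6, from 158475 to 160096), a protein near the peptidyl transferase centre, had 320.1, 166 and 557 RPM in RPFs of Torin 1 animals, against 1765, 653 and 984 RPM in RPFs of DMSO animals. In RNA it had 1918, 2364 and 1444 RPM in Torin 1, against 1969, 2397 and 2052 RPM in DMSO. Scaled to library totals, every Torin 1 RPF library was thus below every DMSO one, while RNA Torin 1 replicate 3 was the only RNA library that stood lower than the rest. For RPF Torin 1 replicate 3 this depends on GSOIDG00008149001, which took 42.7% of that library. The log2 ratios of RPF to RNA of RPL3 were −1.71, −3.51 and −1.02 in Torin 1, against 0.22, −1.44 and −1.06 in DMSO, and pair 3 differed by 0.04. RPL19 (GSOIDG00013614001), on the outer face of the subunit, had ratios of −2.09, −3.58 and −1.29 in Torin 1, against 0.20, −2.07 and −1.55 in DMSO. The stalk protein RPLP0 (GSOIDG00012159001), which helps to recruit elongation factors, had −1.67, −3.37 and −0.95 in Torin 1, against −0.11, −1.94 and −1.90 in DMSO. Only the replicate 2 ratio of Torin 1 lay below all DMSO ratios for RPLP0, and for RPL19 the ratios of replicates 1 and 2 did. The other abundant members were RPL8 with an efficiency change of −0.77 (SE 0.82), RPL10 with −1.02 (SE 0.72) and RPL17 with −0.75 (SE 0.76). RPL10, which joins the subunit late in its assembly, was the only one of the 6 that was lower in all 3 pairs.

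The small-subunit list stood at −0.62 relative to all genes with 12 libraries and at −0.94 with 8. RPS6 (GSOIDG00015546001, 4 coding exons on the minus strand of scaffold 66, from 158667 to 159609), the substrate of the S6 kinases, had 200.4, 120.1 and 470 RPM in RPFs of Torin 1 animals, against 1124, 484 and 747.5 RPM in RPFs of DMSO animals. Its RNA was at 1429, 1982 and 1013 RPM in Torin 1, against 1431, 1970 and 1664 RPM in DMSO. Scaled to library totals the RPF levels did not overlap between treatments, which again depends on the 42.7% that GSOIDG00008149001 took of RPF Torin 1 replicate 3. The ratios overlapped, at −1.96, −3.73 and −0.75 in Torin 1, against 0.03, −1.59 and −1.15 in DMSO. RPS3A and RPS23 had efficiency changes of −1.10 (SE 0.80) and −1.02 (SE 0.76). RPS27A, which is made as a fusion with ubiquitin, had −0.50 (SE 0.78), and RPS2 had −0.61 (SE 0.89). Among these 5 small-subunit genes, RPS2 had the one sign that turned without the 4 libraries in doubt, with 0.14 (95% interval −2.08 to 2.36). None of these 5 genes was lower in pair 3.

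Outside the rule that named these genes, 4 ribosomal protein genes were picked after their values were seen. RPL4 (GSOIDG00013547001) and RPS24 (GSOIDG00006568001) were the members with an unadjusted p under 0.05, with changes of −1.56 (SE 0.65, adjusted p = 0.554) and −1.58 (SE 0.70, adjusted p = 0.614 by edgeR's quasi-likelihood test). RPL4 had 80.7, 63.5 and 76.5 RPM in RPFs of Torin 1 animals, against 265, 240.1 and 302 RPM in RPFs of DMSO animals. RPS24 had 101.6, 60.05 and 98.3 RPM in RPFs of Torin 1 animals, against 506, 248 and 386 RPM in RPFs of DMSO animals. In both genes the 3 Torin 1 levels lay together below all DMSO levels, including those of replicate 3. The 2 ends of the list were RPL7A (GSOIDG00010732001), at −3.38 (SE 1.66), and the gene listed under RPL7L1 and RPL7 (GSOIDG00006991001), at 0.65 (SE 0.72). RPL7A rests on 4, 1 and 1 RPF counts in the Torin 1 libraries, against 990, 0 and 2 in the DMSO libraries, so that nearly all of its RPF counts came from RPF DMSO 1. The RPL7L1/RPL7 model was the only ribosomal protein gene that was higher in Torin 1 in all 3 pairs, and its paralogs could share reads with it. A second RPL4 model, GSOIDG00000869001, had −0.91 and was higher in pair 3.

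**Figure D3:**
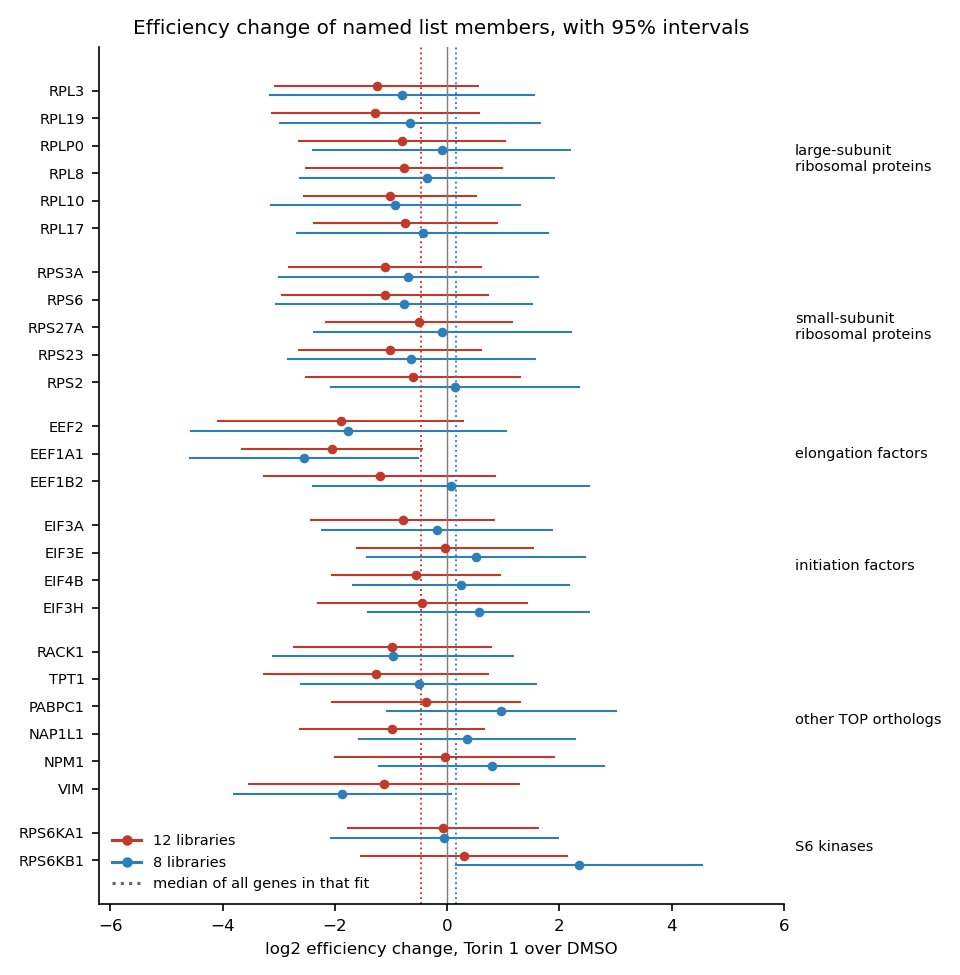
Efficiency change, log2 Torin 1 over DMSO (x axis), of the named list members, with points for the fit of 12 libraries and of 8 libraries bars for 95% intervals and dotted lines at the median of all genes in each fit. The intervals of the plotted ribosomal protein genes hold 0 in both fits, whereas those of EEF1A1 lie below 0 in both.

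The elongation factor list had 4 gene models, of which 3 can be read. The median of these 3 relative to all genes was −1.44 with 12 libraries and −1.92 with 8. EEF1A1 (GSOIDG00006619001, 4 coding exons on the minus strand of scaffold 20, from 486310 to 487921) delivers charged tRNAs to translating ribosomes. It had 167.0, 77.2 and 87.4 RPM in RPFs of Torin 1 animals, against 391, 671 and 391.7 RPM in RPFs of DMSO animals. The value of RPF Torin 1 replicate 3 rests on 8 counts. EEF1A1 RNA was at 668, 352 and 378 RPM in Torin 1, against 434, 364 and 395 RPM in DMSO, with overlap. The log2 ratios were −1.12, −1.87 and −1.75 in Torin 1, against 0.23, 1.32 and −0.01 in DMSO, and EEF1A1 was the only list member outside the ribosomal proteins whose ratios did not overlap between treatments. The change of −2.05 (SE 0.75, 95% interval −3.65 to −0.44) had an unadjusted p of 0.016 and an adjusted p of 0.446 by edgeR's quasi-likelihood test, and with 8 libraries it was −2.55 (SE 1.02, unadjusted p = 0.014). EEF2 (GSOIDG00003020001), the translocase, had 1124, 477 and 863 RPM in RPFs of Torin 1 animals, against 2412, 9394 and 2171 RPM in RPFs of DMSO animals. The DMSO 2 level was well above all others, and the ratios were −0.02, −2.58 and −1.02 in Torin 1, against −0.25, 1.82 and −0.56 in DMSO, so that pair 1 differed by 0.24 in the other direction. Its change was −1.89 (SE 1.02), or −0.11 without all libraries of replicate 2. EEF1B2, an exchange factor for EEF1A1, has 2 models. GSOIDG00014951001 had ratios of −2.48, −3.51 and −0.87 in Torin 1, against −0.68, −1.56 and −2.52 in DMSO, and a change of −1.20 (SE 0.96) that was 0.08 with 8 libraries. That model rests on 3, 2 and 2 RPF counts in the Torin 1 libraries. GSOIDG00004766001 had no RPF count in any Torin 1 library nor in DMSO 2 and 3. It had 35 counts in RPF DMSO 1, so that no fold is given.

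The elongation factor 1 delta gene (GSOIDG00003404001), the reference of the qPCR assay of the study, had 12.5, 15.4 and 10.9 RPM in RPFs of Torin 1 animals, against 48.45, 10.3 and 32.9 RPM in RPFs of DMSO animals. These levels rest on 9, 9 and 1 RPF counts in Torin 1, against 1109, 9 and 11 in DMSO. Pair 2 was higher in Torin 1 by 0.55, and pairs 1 and 3 were lower by values of −1.84 and −1.60. The change was −1.21 (SE 0.84) with 12 libraries and −0.28 (95% interval −2.52 to 1.95) with 8.

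The 4 initiation factors lay close to all genes as a list. Their median relative to all genes was −0.04 with 12 libraries and 0.22 with 8, and it ranged from −0.57 to 0.82 over 28 alternative settings. EIF4B (GSOIDG00000664001), a cofactor of the helicase eIF4A, had 47.3, 29.2 and 54.6 RPM in RPFs of Torin 1 animals, against 142.7, 88.0 and 86.7 RPM in RPFs of DMSO animals, with no overlap when scaled to library totals. The value of RPF Torin 1 replicate 3 rests on 5 counts. The lack of overlap depends on GSOIDG00008149001, which took 42.7% of that library. EIF4B RNA was at 150.3, 270.1 and 172.0 RPM in Torin 1, against 255, 270.1 and 313 RPM in DMSO, lower in replicates 1 and 3 and equal in replicate 2, and the ratios overlapped. The 3 subunits of eIF3, the complex that scaffolds the small subunit at initiation, had changes of −0.79 (EIF3A, SE 0.76), −0.44 (EIF3H, SE 0.87) and −0.03 (EIF3E, SE 0.73). Pair 2 was lower in all 4 genes, from −2.74 (EIF3A) to −1.51 (EIF3E), and pair 3 was higher in all but EIF3A.

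The remaining 6 TOP orthologs stood at a median of −0.52 relative to all genes with 12 libraries and −0.24 with 8, with 4 and 3 of the 6 below the median of all genes. TPT1 (GSOIDG00000824001), the translationally controlled tumour protein, had 87.7, 46.3 and 164 RPM in RPFs of Torin 1 animals, against 573, 347 and 98.7 RPM in RPFs of DMSO animals. Replicate 3 thus had the opposite order to replicates 1 and 2, and pair 3 differed by 1.75. RACK1 (GSOIDG00007647001), a scaffold on the small subunit, had ratios of −2.07, −3.41 and −0.16 in Torin 1, against −0.26, −1.35 and −0.85 in DMSO, the pattern of the ribosomal proteins. The histone chaperone NAP1L1 (−0.99, SE 0.77), PABPC1, which binds poly(A) tails (−0.38, SE 0.78), and the nucleolar protein NPM1 (−0.04, SE 0.91) lay at −0.53, 0.08 and 0.42 relative to all genes with 12 libraries, and had changes of 0.35, 0.97 and 0.80 with 8. VIM (GSOIDG00012325001), an intermediate filament ortholog, had 57.1, 160 and 10.9 RPM in RPFs of Torin 1 animals, against 90.0, 26.3 and 59.8 RPM in RPFs of DMSO animals, with pairs of −2.64, 2.37 and −4.03. The value of RPF Torin 1 replicate 3 rests on 1 count. VIM was the member with the widest spread between pairs in this list. RNA Torin 1 replicate 1, at 287 RPM, was above the other RNA libraries, which held 11.8 to 51.2 RPM.

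The orthologs of S6 kinases are not TOP mRNAs. RPS6KB1 (GSOIDG00000569001), the S6 kinase activated by mTOR, had 13.9, 10.3 and 21.8 RPM in RPFs of Torin 1 animals, against 37.9, 10.3 and 14.9 RPM in RPFs of DMSO animals. Its RNA was at 36.8, 100.8 and 77.8 RPM in Torin 1, against 115.5, 105.5 and 141 RPM in DMSO, where all Torin 1 libraries were below all DMSO ones. The closest values, 100.8 and 105.5 RPM, come from the replicate 2 libraries, which agree within sampling noise. The RPF levels rest on 10, 6 and 2 counts in Torin 1, and on 9 and 5 in DMSO 2 and 3. The efficiency change was 0.31 (SE 0.86) with 12 libraries and 2.35 (95% interval 0.16 to 4.55, unadjusted p = 0.036 and adjusted p = 0.377 by edgeR's quasi-likelihood test) with 8. The 8-library value rests on RNA Torin 1 replicate 1, which was the lowest RNA library for this gene. RPS6KA1 (GSOIDG00014860001), which in mammals is activated through ERK, had −0.07 and −0.05 in the 2 fits, with pairs of 1.96, −1.75 and −0.11.

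Ribosomal protein genes with a spliced leader (65) and without one (7) had similar medians. Relative to all genes these were −0.61 and −0.68 with 12 libraries and −0.97 and −1.29 with 8, and both had the opposite sign in pair 3, at 1.10 and 0.75. Their own medians in pair 3 were 0.09 and −0.26, where that of all genes was −1.01.

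Where a gene lies and how abundant its RNA is also went with its efficiency change, and the ribosomal protein genes are set beside the other genes of their class. Operons were predicted from the annotation as genes on one strand at most 60 bp apart. Relative to all genes, the 3404 genes downstream in operons had a median change of 0.34 with 12 libraries and 0.53 with 8, the 1910 first genes had 0.28 and 0.47, and the 9211 genes outside operons had −0.24 and −0.70. The classes differed more in RNA than in RPFs, with medians relative to all genes of −0.54 (RNA) and −0.21 (RPFs) for downstream genes and 0.71 and 0.16 for genes outside operons. Pair 2, whose RNA libraries were nearly equal, had the opposite order, with −0.44 for downstream genes and 0.21 for genes outside operons, against 0.64 and −0.37 in pair 1 and 0.99 and −0.64 in pair 3. The 46 ribosomal protein genes downstream in operons lay at −0.62 (12 libraries) and −0.97 (8 libraries), where the other downstream genes lay at 0.35 and 0.55. The 16 first genes among the ribosomal proteins lay at −0.64 and −0.91, and the 10 outside operons at −0.57 and −1.05, close to one another and to the downstream members. Of the 72, 70 were in the highest of 4 equal classes of genes by RNA level per kb of coding length. These 70 lay at −0.61 (12 libraries) and −0.97 (8 libraries), and the other 3561 genes of that class at 0.37 and 0.47. In single pairs the whole class, with these 70, lay at 0.87 (pair 1), −0.52 (pair 2) and 1.01 (pair 3). The ribosomal protein genes lay at −1.01, −1.62 and 1.07, so that in pair 3 they were close to their class.

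**Figure D4:**
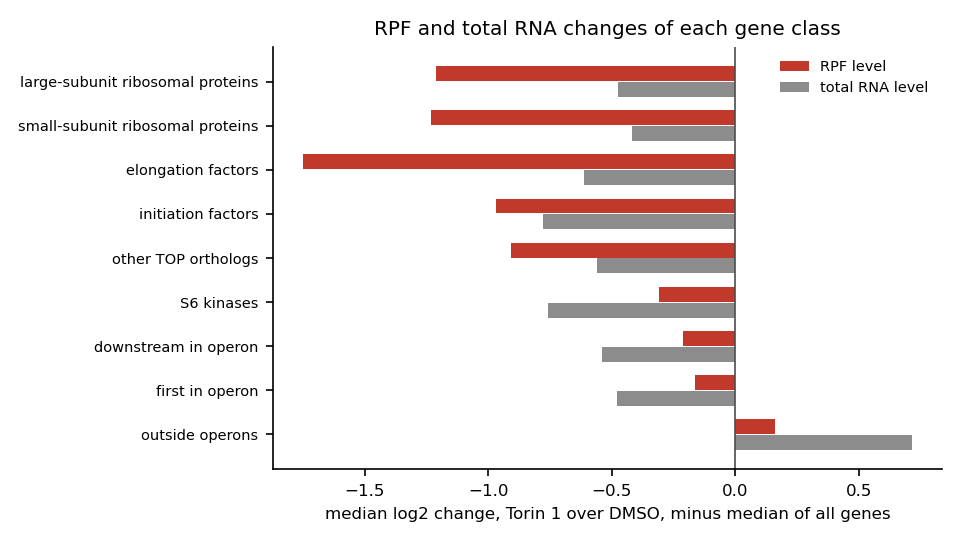
Median RPF change and median RNA change, log2 Torin 1 over DMSO minus the median of all genes (x axis), for each gene list (3 elongation factors) and each operon class (y axis). For ribosomal proteins the RPF change is the larger in size, and for genes outside operons the RNA change (0.71) exceeds that of RPFs (0.16).

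Among genes outside the lists, GSOIDG00000947001 (scaffold 1, first gene of an operon, 2 coding exons, with no description in the sources used here) had the smallest unadjusted p of those with a mean of at least 20 reads per RPF library that were higher in all 3 pairs. It had 90.5, 75.5 and 65.5 RPM in RPFs of Torin 1 animals, against 13.5, 20.6 and 8.97 RPM in RPFs of DMSO animals. RNA was at 18.8, 14.0 and 13.5 RPM in Torin 1, against 18.8, 12.9 and 15.1 RPM in DMSO. The RPF levels were apart in every library and the RNA levels overlapped, so that the log2 ratios were 3.13, 2.73 and 2.62 in Torin 1, against −0.10, 1.10 and −0.74 in DMSO. The replicate 3 RPF levels rest on 6 counts in Torin 1 and 3 in DMSO. The change was 2.67 (SE 0.67, unadjusted p = 0.0013) with 12 libraries and 2.51 (95% interval 0.38 to 4.65) with 8, it stayed between 2.34 and 3.27 over 27 alternatives, and it was the 1 higher gene called by DESeq2 (adjusted p = 0.018). GSOIDG00011688001, the next in that order to be named, had a change of 2.45 (SE 0.94), with 30.6, 17.2 and 32.8 RPM in RPFs of Torin 1 animals, against 9.83, 13.7 and 2.99 RPM in RPFs of DMSO animals. Its replicate 3 levels rest on 3 counts in Torin 1 and 1 in DMSO, and pair 2 differed by only 0.11. In the other direction, GSOIDG00005375001 and GSOIDG00002233001 had changes of −7.40 (SE 1.63) and −12.05 (SE 2.92). Both reached the mean of 20 reads per RPF library only through RPF DMSO 1, a library in doubt. It held 2275 and 2329 counts of them, and no other RPF library held more than 29 and 5. GSOIDG00005375001 had 4.18, 10.3 and 0 RPM in RPFs of Torin 1 animals, against 99.4, 33.2 and 32.9 RPM in RPFs of DMSO animals. In RNA, Torin 1 replicate 3 held 52.1 RPM of it and no other RNA library more than 2.95 RPM. GSOIDG00002233001 had 93.2 RPM in RNA Torin 1 replicate 3 and at most 1.18 RPM in the other RNA libraries, and 102 RPM in RPF DMSO 1.

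The 144 genes that DESeq2 called lower shared this makeup. Their median RNA change was 6.60 and their median RPF change −1.50. Of the 144, 142 had their highest RNA level in RNA Torin 1 replicate 3 and 133 their highest RPF level in RPF DMSO 1. Such maxima are favoured among genes called lower, and their share among all genes was not counted. In pair 2, 134 of the 144 were higher in Torin 1, where 48.6% of all genes were lower. With 8 libraries their median change was −1.43. Of the 63 that had a description, the abundant ones included proteins of sperm and of the axoneme, the core of cilia and flagella. The sperm-specific sodium proton exchanger (GSOIDG00004369001) had 326, 1359 and 382 RPM in RPFs of Torin 1 animals, against 1791, 100.6 and 359 RPM in RPFs of DMSO animals. Its RNA was at 22.8, 8.38 and 1220 RPM in Torin 1, against 2.30, 6.70 and 1.27 RPM in DMSO. RNA Torin 1 replicate 3 thus stood far above every other RNA library. The change was −7.03 (SE 2.17) with 12 libraries, −1.69 (95% interval −3.78 to 0.40) with 8 and −0.27 without RPF DMSO 1 and RNA Torin 1 replicate 3. The dynein intermediate chain 3 gene (GSOIDG00009352001), part of a ciliary motor, had RNA levels of 12.2, 5.19 and 1139 RPM in Torin 1, against 0.843, 6.39 and 1.35 RPM in DMSO. The H2A histone X gene (GSOIDG00006499001) had 3.42, 3.06 and 308 RPM in RNA of Torin 1 animals, against 0.281, 2.13 and 0.473 RPM in RNA of DMSO animals. The genes described as WD repeat domains 65-like (GSOIDG00011346001) and 52 (GSOIDG00017480001), a protein described as cGMP type I (GSOIDG00001693001), and GSOIDG00006415001 and GSOIDG00017858001 had changes of −7.81 to −6.52 with 12 libraries and −1.62 to −0.09 with 8.

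A list of 36 genes whose descriptions name sperm, testis, cilia, flagella or axoneme parts had its highest sums in the same libraries. It was chosen after these values were seen and from descriptions of genes that the study picked on these libraries. Of the 36, 20 had their highest level in RPF DMSO 1 or RNA Torin 1 replicate 3. RPF Torin 1 replicate 2, not among the libraries in doubt, was nearly as high as RPF DMSO 1. Summed over the list, RPFs held 7503, 23144 and 7406 RPM in Torin 1, against 29008, 2127 and 5768 RPM in DMSO. RNA held 2313, 448 and 21854 RPM in Torin 1, against 458, 460 and 129 RPM in DMSO. The RNA of Torin 1 replicate 3 thus stood well above all other RNA libraries, and the replicate 2 RNA libraries, nearly equal, gave nearly equal sums. No gene of the list was at 0 in any RNA library or in an RPF library of DMSO, and 2, 1 and 4 genes were at 0 in the RPF libraries of Torin 1 replicates 1, 2 and 3. The median efficiency change was −4.94, with 25 of 36 lower at an unadjusted p under 0.05 (7.5% of all genes) and 8 called by DESeq2 (1.47%). In the 8-library fit it was −1.36, with 5 lower at an unadjusted p under 0.05 (8.08% of all genes). Since the list was picked with these values in view, nothing is read from these counts. In pair 1 all 36 were lower in Torin 1, in pair 2 35 were higher, and in pair 3 all 36 were lower, with medians of −3.55, 3.10 and −7.24. The animals are described as female. The part that testis or sperm RNA had in these differences was not tested.

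**Figure D5:**
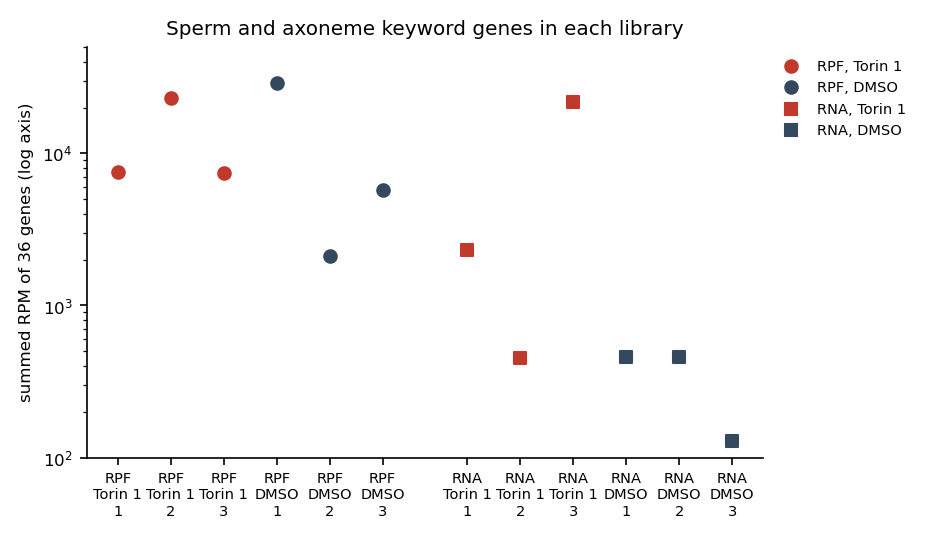
Summed RPM (y axis, log scale) of the 36 sperm and axoneme keyword genes in each of the 12 libraries, RPFs and RNA apart, with Torin 1 left of DMSO. RNA Torin 1 replicate 3 (21854 RPM) and RPF DMSO 1 (29008 RPM) are the highest library of their assay. RPF Torin 1 replicate 2 (23144 RPM) is the next RPF library.

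The 11 genes called lower by edgeR in the 8-library fit had changes of −6.65 to −4.45, and 9 of them lay outside operons. Outside operons lay 9211 of the 14525 tested genes with a gene model. All 11 were also negative with 12 libraries (−4.81 to −2.43), 5 of them at an unadjusted p under 0.05. Of all genes, 66.3% were negative there. The 12 libraries include the same 8, so that this agreement is not independent. All 11 had their highest RNA level in RNA Torin 1 replicate 1, at 1.76 to 24.9 times the next RNA library. This is the one RNA library of Torin 1 in the 8-library fit. A lower efficiency in that fit favours high RNA there, and the share of all genes was not counted. The 3 with a description, named after their values were seen, were a silk protein (GSOIDG00002532001), cathepsin B (GSOIDG00017884001), a lysosomal protease, and lysyl oxidase-like 3 (GSOIDG00013678001), an enzyme that crosslinks collagen and elastin. The silk protein gene had 57.1, 48.0 and 76.5 RPM in RPFs of Torin 1 animals, against 139, 266 and 269 RPM in RPFs of DMSO animals, with no overlap. Its RNA was at 653, 119.0 and 116 RPM in Torin 1, against 195, 128 and 28.7 RPM in DMSO. Cathepsin B had 27.8, 54.9 and 43.7 RPM in RPFs of Torin 1 animals, against 98.4, 66.3 and 92.7 RPM in RPFs of DMSO animals, with no overlap when scaled to library totals. The value of RPF Torin 1 replicate 3 rests on 4 counts. The lack of overlap depends on GSOIDG00008149001, which took 42.7% of that library. Cathepsin B RNA held 575 RPM in Torin 1 replicate 1 and 13.8 to 176 RPM elsewhere. With 8 libraries the changes were −4.45 (silk protein, SE 0.99), −4.57 (cathepsin B, SE 0.95) and −5.82 (lysyl oxidase-like 3, SE 1.20), with adjusted p of 0.028, 0.016 and 0.016 by edgeR's quasi-likelihood test.

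Single genes also took large shares of some RPF libraries. GSOIDG00008149001 (scaffold 24, 6 coding exons) made up 42.7% of RPF Torin 1 replicate 3 and 17.9% of RPF DMSO 3. Its change was 0.38 (SE 2.04) with 12 libraries and −1.46 with 8, and 2.46 without RPF DMSO 3. GSOIDG00007125001 took 21.2% of RPF Torin 1 replicate 1. RPFs of Torin 1 replicates 2 and 3 held 528 and 5374 RPM of this gene, against 1844, 308 and 10570 RPM in DMSO. Its change was 3.95 (SE 3.21), with pairs of 6.67, −0.17 and −1.88.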

How the data were processed

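RPFs and total RNA of whole day 6 females were sequenced from the same collections after rRNA depletion. The authors mapped reads with Bowtie2 2.1.0 (rRNA and tRNA removal) and TopHat2 2.0.13 and deposited raw read counts per protein-coding gene from featureCounts, without normalization. The deposited annotation gives positions in bp, which are values of another kind. Strand setting and multi-mapping are not given in the sources used here, and 0 count columns were left unmapped. Of 17212 genes, 17113 had a gene model, 1042 carried a description, and no identifier matched RefSeq. No genome sequence was used here.

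Efficiency changes came from edgeR 4.0.16 under R 4.3.3 (TMM factors, quasi-likelihood F-test, assay by treatment interaction over 12 libraries, threshold 0.05), which stands in for babel, the package of the study, not used here. RPFs and RNA were also fitted alone in 6 libraries each. Log2 ratios per collection used log2 CPM with TMM factors and a prior count of 2. Alternatives were DESeq2 1.42.0 (4781 adjusted p left as NA), limma 3.58.1 voom, other scalings and filters, replicate blocks and libraries left out. The scripts were checked on simulated data without outlying or near-identical libraries, which checks the code and not the error rates on these libraries. P-values measure the spread between these libraries.

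The 88 list members are the gene models that the supplement of the study matches to human TOP genes (86) or S6 kinases (2). The members and lists were chosen with earlier results of these data known. The genes named were all members of lists of 6 or fewer, the 6 most abundant of each ribosomal list (1 small-subunit gene is not reported here), the qPCR reference, the genes of smallest unadjusted p with a mean of at least 20 reads per RPF library and one sign in all pairs (up to 10 described and 2 by identifier, per direction), the 10 most abundant DESeq2 calls per direction under the same limits, and any gene with at least 5% of an RPF library. Keywords and the sets of libraries in doubt were chosen after the data were seen, except that each library left out in turn was planned.

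Same-numbered RPF and RNA libraries come from 1 collection by the methods of the study. Across genes, their deviations from the group means correlated at 0.183, −0.116 and 0.143 in Torin 1 and 0.006, −0.103 and −0.086 in DMSO. Between Torin 1 and DMSO it was −0.062, 0.014 and −0.014 for RPFs and 0.657, −0.133 and 0.202 for RNA.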

Additional observations from a re-analysis of the deposited data

How the results depend on the processing

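The ribosomal protein medians relative to all genes stayed negative in all 28 alternatives, between −1.18 and −0.20. These alternatives share most of their libraries and none rests on pair 3 alone, so that they are not independent. Over the 3 pairs the medians had a standard deviation of 1.41 (large subunit) and 1.42 (small subunit). The initiation factors (−0.57 to 0.82) and other TOP orthologs (−0.83 to 0.11) changed sign. The median of the 2 S6 kinases relative to all genes stayed positive (0.09 to 1.44). The changes of the genes themselves turned sign, at −0.16 to 2.35 for RPS6KB1 and −0.98 to 1.01 for RPS6KA1. With 8 libraries RPS6KA1 lay at −0.22 relative to all genes. Genes with an adjusted p under 0.05 were 0 with edgeR, 145 with DESeq2 and 11 without the 4 libraries in doubt. The cause of these differences was not tested.

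Lower genes at an unadjusted p under 0.05 numbered 369 with voom, 373 with a replicate block by collection, 545 with a replicate block by number, 247 without RPF DMSO 1 and RNA Torin 1 replicate 3, and from 327 (without RPF DMSO 1) to 1512 (without RNA Torin 1 replicate 2) with 1 library or number left out. Higher genes numbered 16 with library totals, 169 with voom, 56 with no filter, 538 without the 4 libraries, 176 without the pair of RPF DMSO 1 and RNA Torin 1 replicate 3, and from 15 to 167 with 1 left out. The block by collection gave 24 higher genes, 0 adjusted calls and a median of −0.28. RPF calls past an adjusted p of 0.05 were 4 with no filter and 0 to 207 with 1 left out. RNA calls were 81 with DESeq2. The median of all genes was 0.17 without the 4 libraries.

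Signs turned without the 4 libraries for RPS2 (0.14), EEF1B2 GSOIDG00014951001 (0.077), EIF4B (0.25), EIF3H (0.56), EIF3E (0.52), NPM1 (0.80), PABPC1 (0.97), NAP1L1 (0.35) and GSOIDG00008149001 (−1.46). Without RPF DMSO 1 and RNA Torin 1 replicate 3 they turned for PABPC1 (0.12), GSOIDG00006415001 (0.37), GSOIDG00017858001 (1.03), GSOIDG00011346001 (0.070), GSOIDG00001693001 (0.71), GSOIDG00009352001 (0.29) and GSOIDG00008149001 (−0.74). Without the replicate 2 RNA libraries they turned for EIF3E (0.40), NPM1 (0.26), RPS6KA1 (0.22) and GSOIDG00008149001 (−0.059). EIF3E had 0.013 with no filter and 0.0030 with the block by collection, VIM 0.16 with voom, RPS6KA1 0.042 and 0.083 with blocks by collection and number, GSOIDG00008149001 −0.0043 with library totals and GSOIDG00007125001 −0.11 with the block by number. With 1 library or number left out, the range was −1.06 to 0.044 for EIF4B, −1.48 to 0.48 for EIF3H, −1.47 to 0.048 for EIF3A, −0.74 to 0.78 for EIF3E, −0.77 to 1.26 for NPM1, −2.85 to 0.57 for VIM, −0.16 to 1.14 for RPS6KB1, −0.98 to 1.01 for RPS6KA1, −8.80 to 0.39 for GSOIDG00006499001, −1.46 to 2.46 for GSOIDG00008149001 and −1.76 to 9.23 for GSOIDG00007125001.

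Depth limits the efficiency of genes under a few RPF counts, most of all in RPF Torin 1 replicate 3.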

Other observations

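Efficiency change also went with other properties of a gene, given here as medians relative to all genes with 12 libraries and then with 8. In 4 equal classes by RNA level per kb of coding length, the lowest class had −0.71 and −1.37, the next −0.30 and −0.73, the one above it 0.35 and 0.53 and the highest 0.36 and 0.45. The level and the change share the same RNA libraries. In pair 2 the order was the opposite, with 0.29 in the lowest and −0.52 in the highest class. Genes with 1 coding exon had −0.56 and −0.15, and those with 10 or more had 0.17 and 0.09. By coding length, the shortest of 4 classes had −0.12 and 0.02 and the longest 0.11 and 0.11. Calls went with depth. Of the 3355 genes with a median under 2 counts over the RPF libraries, 12.4% were lower at an unadjusted p under 0.05 with 12 libraries and 2.77% with 8, and of the 3993 genes with a median of at least 20 counts, 5.76% and 14.1% were.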
